A study of Mus musculus with 441 samples.

Results

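Mitosis and spindle genes encode the proteins that condense, attach, separate and partition chromosomes when a cell divides. The list examined here named 38 such genes, and all 38 were among the 13561 genes of the deposited expression table. They were described in 441 single cells from mouse pancreatic islets, profiled by the full-length SMART-Seq2 protocol after sorting on a tetramer, in which joined MHC class II molecules present a peptide and so label the T cells whose receptor recognises it. The HIP tetramer sort gave 184 cells and the Ins tetramer sort gave 257 cells, and neither abbreviation is spelled out in the labels. Strain, genotype, age and treatment of the mice are not stated in the labels, which name no animal. Each sort therefore counted as 1 sample, no test between groups was made, and every SD describes variation among cells, not between replicates.

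The authors' annotation placed 44 cells in a dividing class (9 HIP and 35 Ins). The remaining 376 T cells (175 HIP and 201 Ins) were 172 T follicular helper cells, 118 regulatory T cells (Tregs) and 86 cells of cluster 2, which the authors annotated as activated CD4 T cells. Cluster 4 held 21 cells, all Ins, annotated as B cells; its antibody-secreting cell markers summed to at least 40125 TPM in every cell, and at the median cell none of the 6 T cell markers in the table was detected. TPM is each gene's share of a cell's transcripts, corrected for transcript length and scaled to 1000000 in all, so levels can be compared between genes. A gene was called detected at 1 TPM or more. TPM keeps no read depth, and the number of genes detected was the only stand-in for it. At the median it was 3992 in HIP dividing cells, 3610 in Ins dividing cells and 2002.5 in the other T cells. The dividing cells thus had more genes detected per cell, and the classes were cut from these same expression values, so differences between the dividing class and other cells are descriptions. No pair of cells held identical values. Cells 360 and 372 of cluster 4, both of the Ins sort, correlated at 0.869 over all genes (Pearson, log2(TPM + 1)), while the next closest pair of the 441 cells was at 0.666. Both held the same 30 members, and TPM in cell 372 was 0.556 times that in cell 360 at the median member (0.335 to 0.902). Of 1329 genes found in under 20% of all cells and at 10 TPM or more in cell 360, 99.8% were detected in cell 372, where the highest such share between other cells was 64.2%. Cell 372 also held T cell markers, so what it adds to cluster 4 is given with and without it.

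When a cell enters mitosis, cyclin A and cyclin B activate the kinase Cdk1, and Polo-like and Aurora kinases drive spindle assembly. Kinetochores, built on centromeric chromatin, hold the spindle microtubules, and a checkpoint delays anaphase until every chromosome is attached. The anaphase-promoting complex then marks cyclins for destruction, and a midzone of antiparallel microtubules guides the cut between the daughter cells. Many of these genes are transcribed late in the cell cycle, after the genes of DNA replication. Their promoters are known for CCAAT boxes, bound by the factor NF-Y, and for a cell cycle homology region with the letters TTTGAA, through which the DREAM and MuvB complexes act in mouse and human cells.

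RefSeq promoter entries (GRCm38.p6, the assembly named mm10, with 250 bases before and 50 after each transcription start) were matched by symbol for 32 of the 38 members. Ccna2, Aurkb, Incenp, Spc24, Tpx2 and Kif20a had no entry. The letters TTTGAA, searched on both strands (TTTGAA or TTCAAA), were present in 24 of the 32 members (75.0%), against 20.2% of all 27025 genes with an entry. CCAAT, also searched on both strands (CCAAT or ATTGG), was present in 26 of 32 members (81.3%), against 41.1% of all genes. Both were present in 21 of 32 members (65.6%), against 8.97% of all genes. For 74 other mitotic genes the shares were 41.9% for TTTGAA and 58.1% for CCAAT. For 27 DNA replication genes they were 11.1% and 63.0%. A match describes letters in the window and is no evidence of binding, and the motifs can share no more than a terminal letter. The 120 bases just before the start are shown for 8 members, with the matched letters in capitals, in the direction of transcription. They were chosen as the kinase gene of mitotic entry (Cdk1), a chromosome state gene (Top2a) and the anaphase exit genes (Cdc20, Ube2c), as spindle motors on chromosomes and poles (Kif11, Kif22), for a promoter with CCAAT but no TTTGAA (Ccnb1), and for the member that differed most between the sorts (Haus4).
Cdk1 (chr10:69352913-69353032, minus strand): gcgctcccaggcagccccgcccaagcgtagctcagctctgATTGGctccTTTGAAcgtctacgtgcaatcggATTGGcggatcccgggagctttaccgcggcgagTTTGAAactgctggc
Top2a (chr11:99024190-99024309, minus strand): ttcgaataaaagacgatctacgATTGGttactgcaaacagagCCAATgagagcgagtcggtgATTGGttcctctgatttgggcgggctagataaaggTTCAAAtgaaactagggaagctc
Cdc20 (chr4:118437344-118437463, minus strand): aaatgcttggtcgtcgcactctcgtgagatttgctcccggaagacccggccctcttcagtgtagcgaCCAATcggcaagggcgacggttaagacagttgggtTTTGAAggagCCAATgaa
Ube2c (chr2:164769809-164769928, plus strand): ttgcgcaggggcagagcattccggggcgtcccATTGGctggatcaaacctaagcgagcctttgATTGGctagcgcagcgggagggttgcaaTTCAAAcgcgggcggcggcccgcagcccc
Kif11 (chr19:37376262-37376381, plus strand): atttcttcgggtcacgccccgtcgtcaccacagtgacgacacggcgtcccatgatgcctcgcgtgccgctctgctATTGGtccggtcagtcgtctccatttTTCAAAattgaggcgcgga
Kif22 (chr7:127042421-127042540, minus strand): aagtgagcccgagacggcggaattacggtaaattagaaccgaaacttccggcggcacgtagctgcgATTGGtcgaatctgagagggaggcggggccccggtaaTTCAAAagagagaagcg
Ccnb1 (chr13:100786487-100786606, minus strand): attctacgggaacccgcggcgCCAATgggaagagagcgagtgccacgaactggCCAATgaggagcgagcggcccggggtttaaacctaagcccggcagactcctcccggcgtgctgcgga
Haus4 (chr14:54554362-54554481, minus strand): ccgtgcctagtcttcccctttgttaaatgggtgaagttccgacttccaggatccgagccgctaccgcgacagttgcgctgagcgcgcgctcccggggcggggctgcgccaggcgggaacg
Cdk1 held both motifs more than once. Haus4 held neither of them in the 120 bases shown, but its full window held a reverse CCAAT at −193 from the start, counted above.

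Members were found together in the dividing class. The number of members detected per cell had a lowest, median and highest value of 11, 29 and 38 in the 9 HIP dividing cells. The same values were 3, 21 and 37 in the 35 Ins dividing cells, and 0, 3 and 11 in the 376 other T cells. The dividing class and the other T cells thus overlapped only between 3 and 11 members. Per 1000 genes detected, the median was 5.88 members in the 44 dividing cells, against 1.65 in the other T cells. The TPM summed over all 38 members was 8029 at the median in HIP dividing cells (2263 to 22060), 3636 in Ins dividing cells (446.4 to 21337) and 86.4 in the other T cells (0 to 5069). At least 10 members were detected in 9 of 9 HIP dividing cells and in 25 of 35 Ins dividing cells (71.4%, exact Clopper-Pearson 95% interval 53.7% to 85.4%). In the other T cells 1 of 376 reached that number (0.266%, 0.00673% to 1.47%). At least 30 members were detected in 4 of 9 HIP and in 7 of the 35 Ins dividing cells. Intervals cover counting error only.

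**Figure D1:**
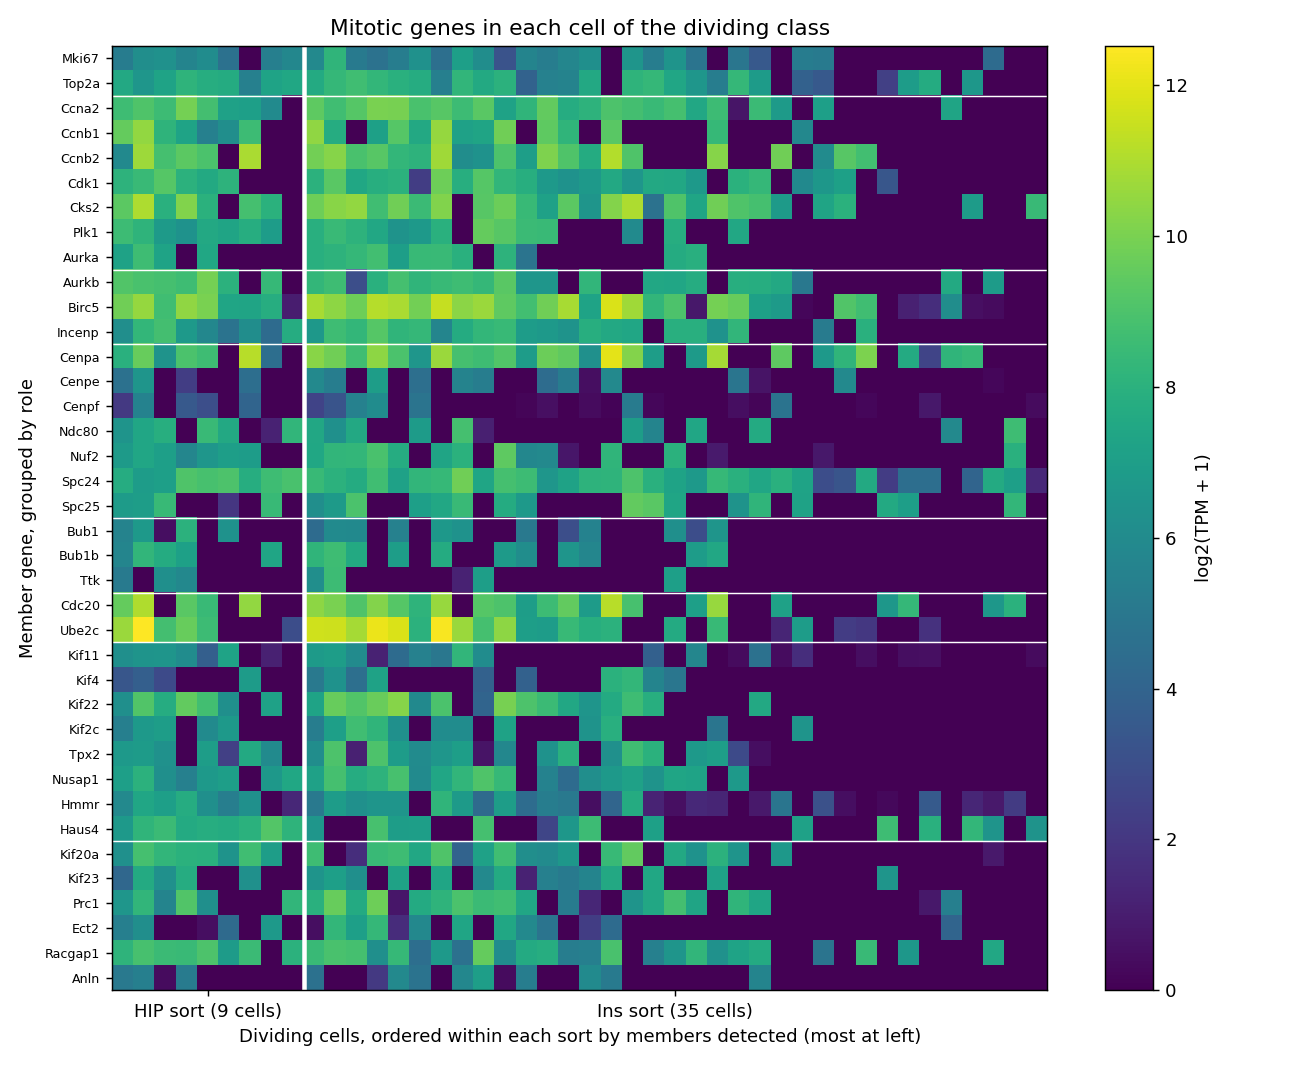
Level of each of the 38 members (rows, grouped by role between white lines) in each of the 44 cells of the dividing class (columns), as log2(TPM + 1) by colour; the 9 HIP cells are left of the white bar and the 35 Ins cells right of it, ordered by members detected. The last 10 Ins columns, with 3 to 8 members each, are dark over most rows, while Spc24 is present in 43 of the 44 cells.

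The dividing class made up 4.89% of HIP cells (9 of 184, interval 2.26% to 9.08%) and 13.6% of Ins cells (35 of 257, 9.67% to 18.4%). Cell numbers fall in blocks of 96, each of 1 sort, and the labels do not say what a block is. By block the share was 2.27% and 7.29% in HIP, against 20.8%, 10.8% and 10.9% in Ins, so the ranges of the blocks did not overlap. Block and sort cannot be told apart. The sorts also differed in lineage: Foxp3, the defining factor of Tregs, was detected in 0 of 9 HIP dividing cells and in 27 of 35 Ins dividing cells. All 6 T cell markers in the table were detected in the dividing cells of both sorts.

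Mki67 and Top2a mark the state of the chromosomes: Ki-67 coats mitotic chromosomes, and topoisomerase II alpha untangles and condenses DNA. Mki67 was at 0, 49.6 and 80.1 TPM in the lowest, median and highest HIP dividing cell, against 0, 26.9 and 295.6 TPM in Ins dividing cells. Top2a was at 42.9, 177 and 281 TPM in HIP dividing cells, against 0, 98.1 and 416 TPM in Ins dividing cells. The cells of the 2 sorts overlapped for both genes. Top2a was detected in 36 of the 44 dividing cells and in 22 of the 376 other T cells (5.85%). Mki67 was detected in 31 of 44 dividing cells and in 17 of 376 others (4.52%). Both were detected together in 30 of 44 dividing cells (68.2%, 52.4% to 81.4%), but in only 3 of the 376 other T cells (0.798%, 0.165% to 2.31%).

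Among the 7 genes of mitotic entry, Cks2, which encodes a small subunit bound to Cdk1, was detected most often, in 33 of 44 dividing cells. Its TPM was 0, 256 and 1987 in the lowest, median and highest HIP dividing cell, against 0, 345 and 2002 in Ins dividing cells. Ccna2, encoding cyclin A2, was at 0, 383 and 946 TPM in HIP dividing cells, against 0, 271 and 1017 TPM in Ins dividing cells. The kinase gene Cdk1 was at 0, 263 and 586 TPM in HIP dividing cells, against 0, 108 and 853 TPM in Ins dividing cells. The sorts overlapped for all 3 genes; the highest Cdk1 cell lay in Ins and the higher Cdk1 median in HIP.

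The B cyclins partner Cdk1 in mitosis. Ccnb1 was at 0, 154 and 1437 TPM in HIP dividing cells, against 0, 0 and 1504 TPM in Ins dividing cells, and Ccnb2 was at 0, 450.8 and 1964 TPM in HIP, against 0, 127 and 2159 TPM in Ins. The higher median of each lay in HIP, and the highest cell in Ins. The kinase Plk1, which promotes mitotic entry and spindle formation, was at 0, 158 and 386 TPM in HIP dividing cells, against 0, 0 and 757 TPM in Ins dividing cells. Aurka, the Aurora kinase of the spindle poles, was detected least of the 7, in 16 of 44 dividing cells. Its median was 0 in both sorts, and its highest cell was at 390 TPM in HIP, against 419 TPM in Ins.

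Cyclins were also looked at together with their kinase, cell by cell. Cdk1 was found with at least 1 B cyclin in 6 of 9 HIP dividing cells, 19 of 35 Ins dividing cells and 0 of the 376 other T cells. A count of 0 of 376 allows a share of up to 0.798% taken as 3 cells, or 0.976% by the exact interval. Few of those cells could hold the pair, since Cdk1 was detected in 14 of them and a B cyclin in 11, and 3 HIP and 16 Ins dividing cells lacked it too. Ccna2 was found together with a B cyclin in 7 of 9 HIP, 19 of 35 Ins and 0 of 376 other T cells. Ccna2 without a B cyclin was found in 1 HIP and 5 Ins dividing cells and in 6 other T cells. A B cyclin without Ccna2 was found in 0 HIP and 3 Ins dividing cells and in 11 other T cells. No cyclin of these 3 was detected in 1 of 9 HIP dividing cells, 8 of 35 Ins dividing cells and 359 of the 376 others.

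The chromosomal passenger complex corrects faulty attachments and moves to the midzone in anaphase. Birc5, encoding survivin, averaged 643 ± 575 TPM in HIP, against 798 ± 910 TPM in Ins dividing cells (SD over 9 and 35 cells), the second highest mean of all members over the class. Aurkb, its kinase, averaged 384 ± 291 TPM in HIP, against 155 ± 167 TPM in Ins dividing cells. Incenp, the scaffold, averaged 144 ± 143 TPM in HIP, against 142 ± 152 TPM in Ins. These means differed by less than 1 SD over cells in either sort for Birc5 and Incenp. All 3 were detected together in 7 of 9 HIP dividing cells, 15 of 35 Ins dividing cells and 0 of 376 other T cells. Aurkb was detected in only 3 of those 376 cells, so few could hold all 3.

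Of the 7 centromere and kinetochore genes, Spc24 had the highest share of all members, with 43 of 44 dividing cells (97.7%, 88.0% to 99.9%). It was also detected in 362 of the 376 other T cells (96.3%), at a median of 30.4 TPM where detected, against 216 TPM in the dividing cells that held it. Over all cells of the class, Spc24 was at 119, 402 and 540.3 TPM in the lowest, median and highest HIP dividing cell, against 0, 192 and 889.6 TPM in Ins dividing cells, so the sorts overlapped. Its partners in the NDC80 complex, which grips microtubules, were far rarer outside the dividing class. Ndc80 was detected in 19 of 44 dividing cells and 3 of 376 others, Spc25 in 22 of 44 and 2 of 376, and Nuf2 in 20 of 44 and 48 of 376. All 4 were found together in 4 of 9 HIP dividing cells, 5 of 35 Ins dividing cells and 0 of 376 other T cells. Of those 376 cells, only the 2 with Spc25 could have held all 4. Cenpa, the histone H3 variant of centromeres, was detected in 34 of 44 dividing cells and 43 of 376 others. The large proteins of the outer kinetochore gave the lowest values: Cenpe was detected in 15 and Cenpf in 12 of the 44 dividing cells. Cenpf had the lowest mean of all members, at 6.75 ± 15.0 TPM (SD over 44 cells). It was at 0, 3.21 and 45.3 TPM in the lowest, median and highest HIP dividing cell, against 0, 0 and 67.1 TPM in Ins dividing cells.

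The 3 spindle checkpoint genes were each detected in 16 or fewer dividing cells. Ttk, which encodes Mps1, was detected in 3 of 9 HIP dividing cells and 5 of 35 Ins dividing cells, the lowest share of all members (18.2%, 8.19% to 32.7%). Its highest cell was at 73.4 TPM in HIP and at 384 TPM in Ins, with a median of 0 in both. Bub1 and Bub1b were each detected in 16 of 44 dividing cells. All 3 were found together in 2 HIP and 2 Ins dividing cells. Anaphase exit genes stood at the other end of the level scale. Ube2c, the ubiquitin-conjugating enzyme of the anaphase-promoting complex, had the highest mean of all members over the 44 dividing cells. In Ins cells alone Birc5 was higher, at 798 TPM. Ube2c averaged 1009 ± 1897 TPM in HIP, against 766 ± 1418 TPM in Ins dividing cells. Cdc20, an activator of the same complex, averaged 584 ± 742 TPM in HIP, against 411 ± 571 TPM in Ins. Each SD exceeded its mean, and both genes were found together in 4 of 9 HIP and in 16 of the 35 Ins dividing cells.

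The 8 spindle genes were detected in 14 (Kif4, a chromosome-bound kinesin) to 30 (Hmmr, a spindle adaptor) of the 44 dividing cells. The others were Kif11, the motor that pushes spindle poles apart (20 cells), Kif2c, a microtubule-depolymerizing kinesin (17), Kif22, a motor on chromosome arms (24), Tpx2, an activator of Aurora A (24), Nusap1, which bundles microtubules (27), and Haus4, a subunit of the augmin complex that branches microtubules (24). The 6 midzone and cytokinesis genes were detected in 13 (Anln, which encodes anillin) to 33 (Racgap1) dividing cells. Between them were Ect2, the exchange factor that activates RhoA (16), Kif23 (20), the microtubule bundler Prc1 (25) and the kinesin gene Kif20a (27). Kif23 and Racgap1 encode the subunits of the centralspindlin complex. They were found together in 5 of 9 HIP dividing cells, 14 of 35 Ins dividing cells and 0 of 376 other T cells. Kif23 alone was detected in 0 of those 376 cells, so the joint count there could only be 0.

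Over the whole list, the share of dividing cells with a member ran from 18.2% to 97.7%, with a median of 54.5%, and 21 of the 38 members were detected in over 50% of the cells. By mean TPM over the 44 dividing cells, Ube2c came first at 815 ± 1506, then Birc5 at 767 ± 849, Cenpa at 541 ± 773, Cks2 at 472.5 ± 525.6 and Cdc20 at 446.6 ± 605. Neighbours in this order differed by less than the SD of either. All 38 members had a mean log2(TPM + 1) more than 1 higher in the dividing class than in the other T cells. The same held for 44.4% of the 8201 genes past the filter. That filter took detection in either group, and most members passed it only through the dividing class. The class was cut from these same values, so the count of members is a description and tests nothing. The median difference was 3.66 for members, 2.13 for 89 other mitotic genes past the filter and 0.85 for all genes. Of those 89 genes, 76 were more than 1 higher. The most often detected of the other mitotic list were Stmn1, a microtubule-destabilizing protein (43 of 44 dividing cells), Anapc5, a subunit of the anaphase-promoting complex (39), Ncaph2 and Smc4 of the condensin complexes (39 and 37), and the spindle protein gene Tacc3 (36). Bub3 and Mad2l1, both of the checkpoint, and the Cdk1 subunit gene Cks1b tied for the next place, with 34 cells each.

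**Figure D2:**
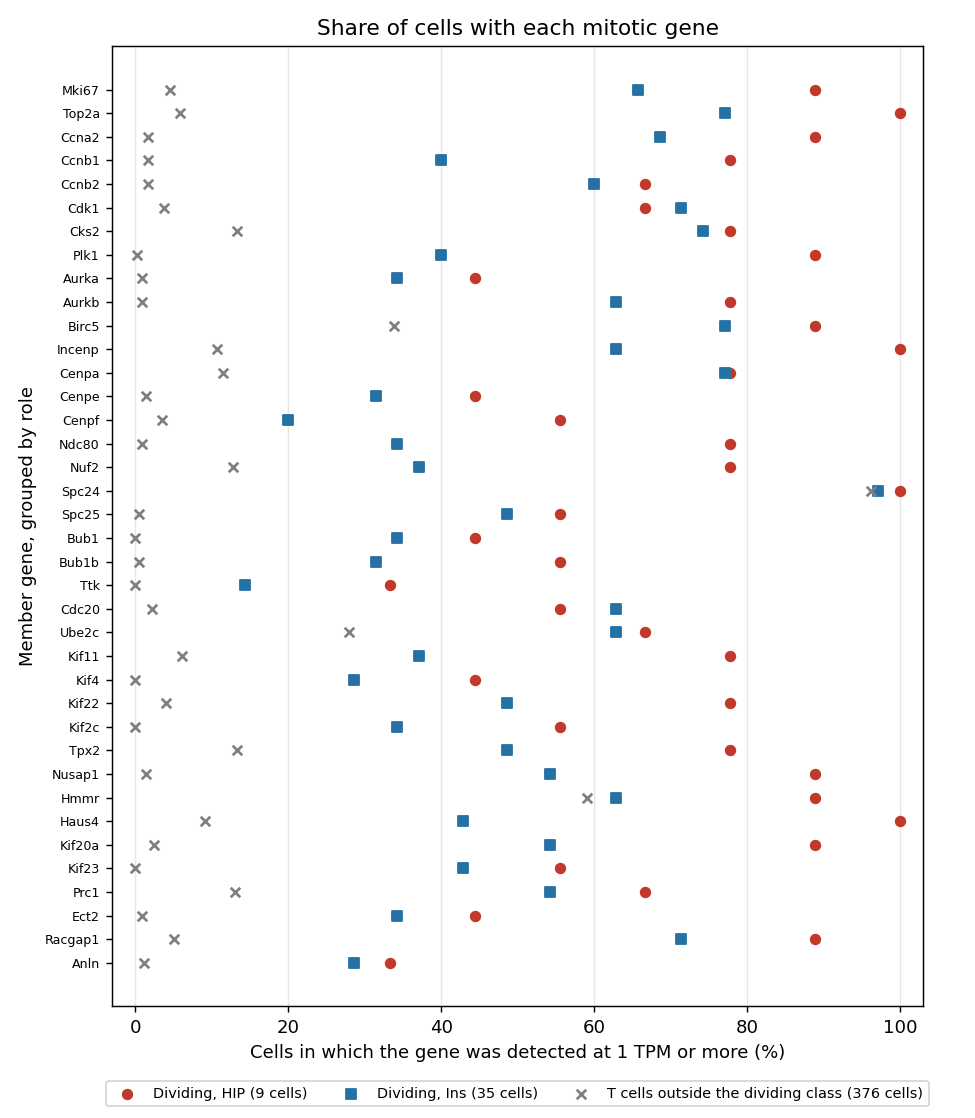
Share of cells in which each member was detected at 1 TPM or more (horizontal axis, percent), for the 9 HIP dividing cells (red circles), the 35 Ins dividing cells (blue squares) and the 376 other T cells (grey crosses); members run down the page by role. Crosses lie below 15% for all members but Spc24, Hmmr, Birc5 and Ube2c.

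Co-detection was dense inside the dividing class and sparse outside it. All 703 pairs of members were found together in at least 1 dividing cell. That count was fixed by 1 HIP cell, which held all 38 members and the most genes detected of all cells. The cells with both genes of a pair made up 48.5% of the cells with either at the median pair (14.3% to 83.7%). The highest shares were those of Top2a with Spc24 (36 of 43 cells), Incenp with Racgap1 (29 of 35) and Mki67 with Cdk1 (28 of 34). Spc24 was in 43 of the 44 dividing cells, so its share with Top2a mostly restates how often Top2a was detected. In the other T cells, 289 of the 703 pairs were found together in any cell. Without the 4 members detected in over 100 of those cells, 175 of 561 pairs were, in at most 10 cells each. Pairs share cells and numbers of genes detected, so these shares describe the cells and are not independent of each other.

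DNA replication genes, such as helicase and polymerase subunits, gave a second axis. Of 32 listed, HIP dividing cells had 8, 25 and 30 detected in the lowest, median and highest cell, and Ins dividing cells had 6, 23 and 31. The other T cells had a median of 2. Fewer than 10 members were detected in 10 dividing cells, all Ins, and these held 7 to 28 replication genes with a median of 22.5; 8 of the 10 held 15 or more. Foxp3 was detected in 7 of these 10 cells and in 20 of the 25 other Ins dividing cells, and their median of genes detected was 3271.5, against 3646 in those 25 cells. At the other corner, 27 dividing cells had 20 or more members (8 HIP and 19 Ins). Of these 27, 6 had fewer than 15 replication genes (2 HIP and 4 Ins), with 9078 to 22060 TPM summed over members. The 21 with 15 or more replication genes had 2761 to 17597 TPM. The 2 ranges overlapped, and the 2 highest sums of all dividing cells, 22060 TPM in HIP and 21337 TPM in Ins, lay among the 6.

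**Figure D3:**
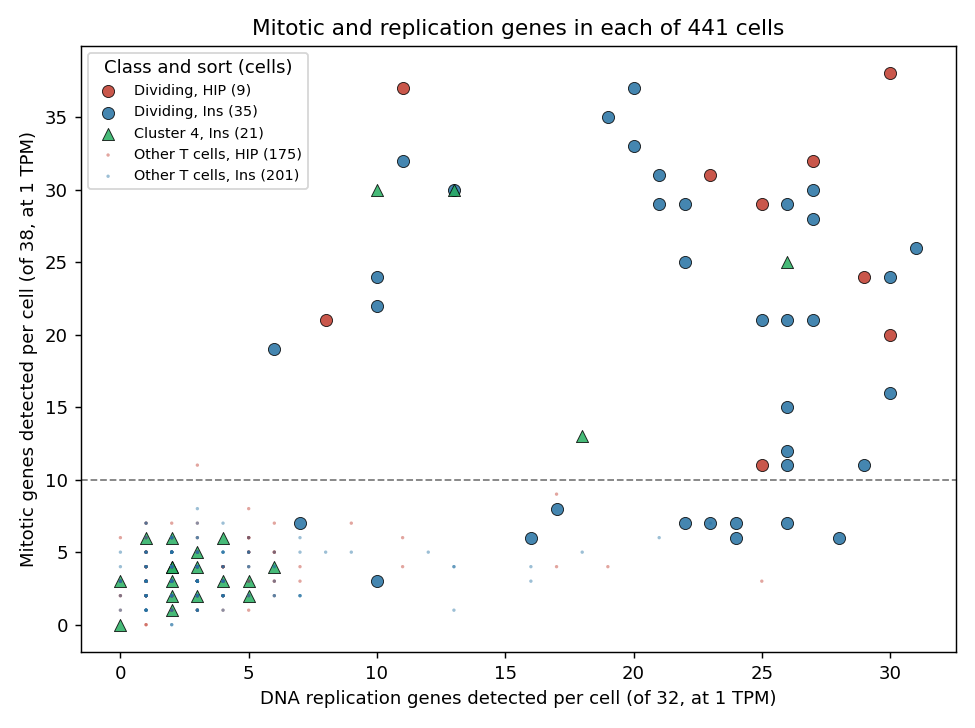
Number of the 38 mitotic genes (vertical axis) against number of the 32 DNA replication genes (horizontal axis) detected in each of the 441 cells; red and blue circles are HIP and Ins dividing cells, green triangles cluster 4 and small dots the other T cells. Dividing cells spread over both axes, 10 Ins cells lie under the dashed line at 10 members, and 4 triangles lie above it.

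Outside the dividing class members differed widely. In the 376 other T cells, 5 members were detected in no cell (Bub1, Ttk, Kif4, Kif2c and Kif23). That allows a share of up to 0.798% each taken as 3 cells, or 0.976% by the exact interval. A further 15 were detected in 1 to 10 cells, 14 in 11 to 50 cells and 4 in more. Those 4 were Spc24 (362 cells), Hmmr (222), Birc5 (127) and Ube2c (105), which made up 61.9% of the 1319 detections. By sort, Spc24 was detected in 97.1% of the HIP cells of this group, against 95.5% of its Ins cells, Hmmr in 64.6% against 54.2%, Birc5 in 33.7% against 33.8% and Ube2c in 26.9% against 28.9%. Cdk1 was detected in 2 of 175 HIP cells of this group (1.14%, 0.139% to 4.07%), against 12 of 201 Ins cells (5.97%, 3.12% to 10.2%). By class and sort, the median number of members was 3 in HIP T follicular helper cells, 3 in Ins T follicular helper cells, 4 in Ins Tregs, 3 in HIP cluster 2 and 3 in Ins cluster 2. The 3 HIP Tregs had 2, 6 and 7.

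Members also differed in their level in the cells that held them. Birc5 had a median of 865 TPM in the dividing cells that held it, against 1.86 TPM in the other T cells that held it. Ube2c had 366 against 3.36 TPM, Prc1 199 against 1.68 TPM, Tpx2 106 against 1.86 TPM, and Ccna2 393 against 1.73 TPM. At 10 TPM or more, Birc5 was left in 7 of the 376 other T cells, Ube2c in 10 and Tpx2 in 2. For other members the median where detected was no lower, or little lower, outside the class. Cenpa had a median of 432 TPM in the dividing cells that held it, against 388 TPM in 43 other T cells. Incenp had 204 against 223 TPM in 40 cells, and Racgap1 202 against 387 TPM in 19 cells. Haus4 had 215 TPM in the dividing cells that held it, against 771 TPM in 34 other T cells, the highest such value of the 12 members plotted. Where detected, Racgap1 and Haus4 were thus at 0.52 and 0.28 times the outside median in the dividing class, although found in a larger share of its cells, while Birc5, Ube2c, Prc1, Tpx2 and Ccna2 were higher there in both respects.

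**Figure D4:**
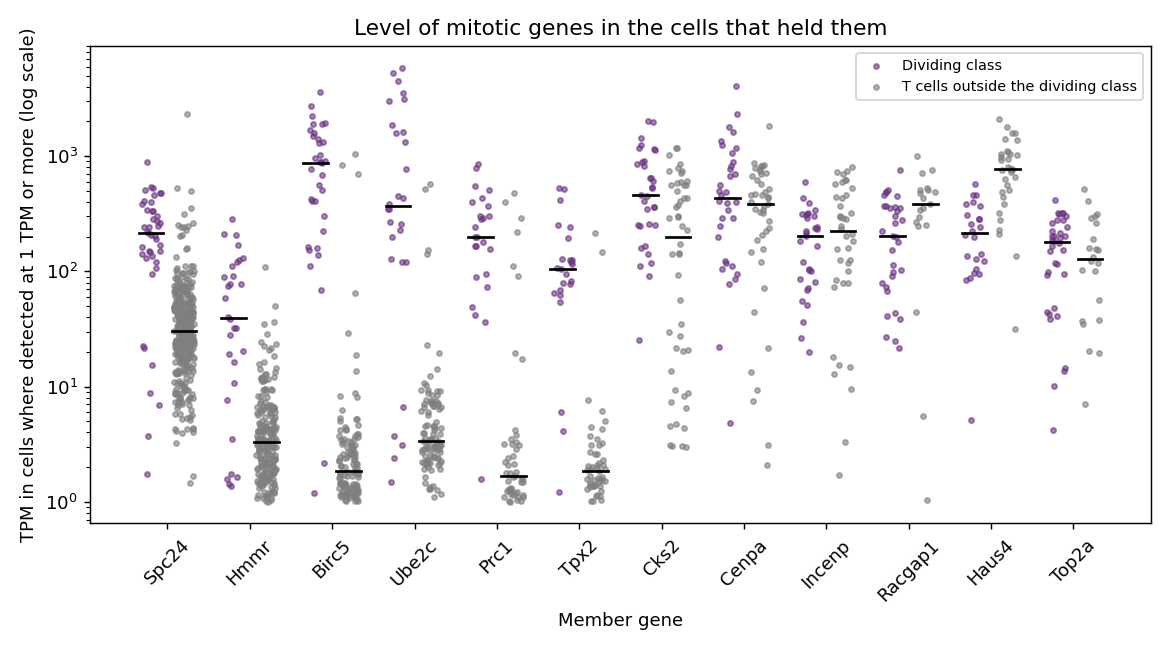
TPM on a log axis in each cell in which a member was detected, for 12 members, with cells of the dividing class in purple on the left of each pair and the other T cells in grey on the right; black lines are medians. Birc5, Ube2c, Prc1 and Tpx2 fall to a few TPM outside the class, while Cenpa, Incenp and Haus4 hold medians of 388, 223 and 771 TPM there in fewer cells.

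Single T cells outside the dividing class that carried several members were few. The 1 cell with 10 or more was a HIP cell of cluster 2, with 11 members and 3 replication genes. Its members were Birc5 at 1044 TPM, Ccnb2 at 867 TPM, Cenpa at 703 TPM, Cdc20 at 678 TPM, Cks2 at 437 TPM, Racgap1 at 269 TPM, Spc24 at 231 TPM, Tpx2 at 216 TPM, Bub1b at 117 TPM, Cenpe at 56.0 TPM and Hmmr at 3.50 TPM. Mki67, Top2a and Cdk1 were not detected in it, and its summed member level was 4622 TPM. A second HIP cluster 2 cell had 8 members but the highest sum outside the dividing class, 5069 TPM, with Ccnb2 at 2292 TPM, Cenpa at 841.5 TPM, Birc5 at 838 TPM and Ube2c at 519 TPM. Another held 9 members with 17 replication genes, Racgap1 at 387 TPM and Top2a at 189 TPM among them. These 3 HIP cells came from HIP block 2, had no detected Foxp3, and held Nkg7 at 4212 to 6365 TPM and Ccl5 at 2310 to 12148 TPM, both genes of effector T cells. An Ins Treg of Ins block 3, with Foxp3 at 360 TPM, also had 8 members. None of its members reached 10 TPM, and they summed to 27.3 TPM. In all, 95 T cells outside the class had 5 to 9 members, those with 8 or 9 among them, and 280 had fewer than 5. At least 15 replication genes were detected in 9 T cells outside the class, with 3 to 9 members each: 2 HIP T follicular helper cells, 4 Ins Tregs, 2 HIP and 1 Ins cells of cluster 2.

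Cluster 4 also held cells with the list. The number of members per cell was 0, 4 and 30 at the lowest, median and highest of its 21 cells, and 4 cells had 10 or more (19.0%, 5.45% to 41.9%). Without the cell whose values repeat those of another, 3 of 20 did (15.0%, 3.21% to 37.9%). The 4 cells had 30, 30, 25 and 13 members and 10, 13, 26 and 18 replication genes. Xbp1, a factor of antibody secretion, was at 2574, 1311, 3237 and 5228 TPM in the same cells, and Sdc1, the plasma cell surface marker CD138, at 158, 64.1, 213 and 353 TPM. In the first of them Ube2c was at 2420 TPM, Cdc20 at 2187 TPM and Ccnb1 at 1188 TPM. The one with 25 members held Birc5 at 947 TPM, Kif22 at 562 TPM and Cks2 at 495 TPM.

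The sorts were compared within the dividing class, as the difference of mean log2(TPM + 1), HIP minus Ins. Of the 38 members, 35 were higher in HIP dividing cells (92.1%), where 58.6% of the 9539 genes past the filter were. The difference exceeded 1 for 23 members (60.5%), where it did for 17.2% of all genes, and no member was more than 1 lower, where 10.0% of all genes were. The median difference was 1.30 for members and 0.17 for all genes. In every HIP block the mean was higher than in every Ins block for 16 members (42.1%), where that held for 11.4% of all genes. By mean TPM, 28 of the 38 were higher in HIP (73.7%), where 48.1% of all genes were. Leaving out HIP block 2, which leaves 2 HIP cells, gave a median difference of 0.49 with 24 of the 38 members higher. Leaving out the cells with the most genes detected gave 0.81 with 28 of the 38 members higher, from 4 HIP and 20 Ins cells. No share over all genes was computed for these settings, so neither count has a background beside it. With 9 HIP cells of 1 sample, the difference has no replicate check, and the share of cells with fewer than 10 members (0 of 9 HIP and in 10 of the 35 Ins) enters it.

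Haus4 differed most between the sorts, by 4.90. It was at 106, 258 and 571 TPM in the lowest, median and highest HIP dividing cell, against 0, 0 and 464.4 TPM in Ins dividing cells. It was present in all 9 HIP cells (interval 66.4% to 100%), against 15 of 35 Ins cells (42.9%, 26.3% to 60.6%), the only member whose intervals did not overlap. The share of all genes with such intervals was not computed, so this call has no background beside it. Haus4 was also picked as the member with the largest difference. Outside the dividing class the same gene was detected in 10 of 111 HIP T follicular helper cells, against 4 of 61 among Ins, in 15 of 115 Ins Tregs, and in 5 of 61 HIP cells of cluster 2, against 0 of 25 among Ins. The gene lies on chromosome 14 at 54541785 to 54554989 (GRCm38). The promoter bases shown for it, 54554362 to 54554481, lie inside this span, so the RefSeq start used was not the end of the span.

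Plk1 followed with a difference of 3.47, detected in 8 of 9 HIP and in 14 of the 35 Ins dividing cells, with means of 172 ± 115 TPM in HIP, against 115 ± 188 TPM in Ins. Ndc80 differed by 2.96, at 150 ± 136 TPM in HIP, against 57.4 ± 112 TPM in Ins. Kif20a differed by 2.91, at 216 ± 156 TPM in HIP, against 128 ± 187 TPM in Ins. Ccnb1 differed by 2.81, in 7 of 9 HIP and in 14 of the 35 Ins cells. Racgap1 differed by 2.34, at 304 ± 162 TPM in HIP, against 148 ± 186 TPM in Ins. For these 5 the per-cell values of the sorts overlapped. On this scale a gene absent from many cells gives a large difference: the mean TPM of Plk1 was 1.49 times and that of Ndc80 2.61 times the Ins value.

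Only 3 members lay below 0. Cenpa was at −0.27, with means of 480 ± 734 TPM in HIP, against 556 ± 792 TPM in Ins dividing cells. Spc25 was at −0.09, with 103 ± 144 TPM in HIP, against 124 ± 186 TPM in Ins, and Cdc20 at −0.07. The 3 next smallest were Kif4 at 0.22, Cenpe at 0.25 and Anln at 0.28. In TPM, the means of each of these genes differed between the sorts by less than the SD over cells in either sort. By role, the median difference was 2.14 for the 8 spindle genes, 1.79 for the 3 passenger genes, 0.84 (midzone and cytokinesis) to 1.74 (chromosome state) for the 4 groups that also include the checkpoint and the kinetochore genes, 0.79 for the 7 genes of mitotic entry and 0.39 for the 2 anaphase exit genes. The order was not that of the median ratio of mean TPM, HIP over Ins, which was 1.11 for spindle and 1.02 for passenger genes, but 1.32 for mitotic entry, 1.37 for anaphase exit and 1.83 for checkpoint genes.

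**Figure D5:**
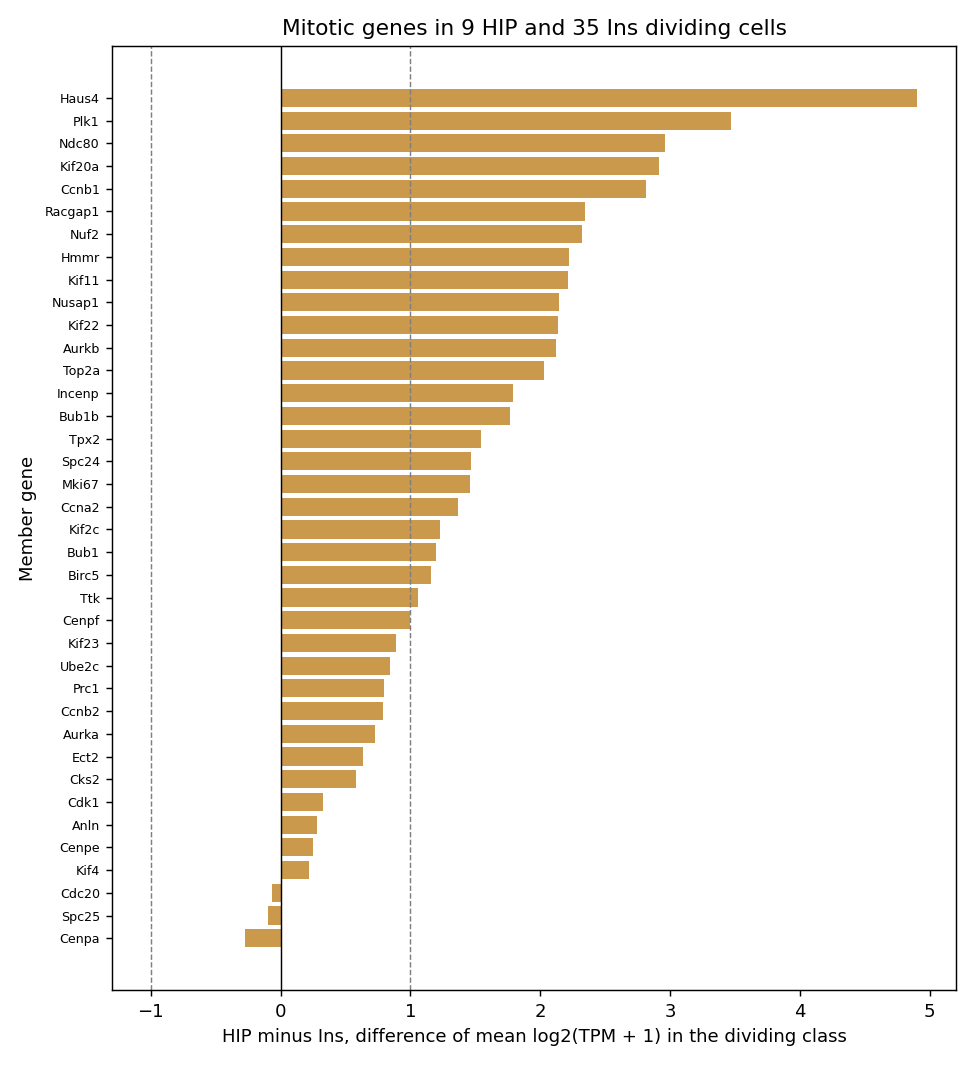
Difference of mean log2(TPM + 1) between 9 HIP and 35 Ins dividing cells, HIP minus Ins (horizontal axis), for each of the 38 members ordered by size; dashed lines mark a difference of 1 in either direction. Bars run from 4.90 for Haus4 to −0.27 for Cenpa, and 3 bars lie below 0.

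Of all genes past the filter, 58.6% were higher in HIP dividing cells, 17.2% more than 1 higher and 10.0% more than 1 lower. Of the 92 other mitotic genes, 72 were higher in HIP dividing cells (78.3%) and 20 lower, with a median difference of 0.64. Of the 92, 35 were more than 1 higher (38.0%) and 6 more than 1 lower. The largest were Cenph, a subunit of the inner kinetochore, at 3.16 (192 ± 162 TPM in HIP, against 75.3 ± 130 TPM in Ins), Cks1b at 3.09 (798 ± 364 TPM in HIP, against 451.6 ± 479 TPM in Ins) and the augmin subunit gene Haus6 at 2.67 (34.5 ± 44.2 TPM in HIP, against 2.36 ± 8.86 TPM in Ins). The lowest were Mis12, a kinetochore scaffold gene, at −3.38, detected in 0 of 9 HIP and in 17 of the 35 Ins cells, the kinase gene Pbk at −1.84 and Haus1, another augmin subunit, at −1.83, detected in 1 of 9 HIP and in 13 of the 35 Ins cells. The augmin genes thus did not share a direction. Of the 32 DNA replication genes, 20 were higher in HIP dividing cells (62.5%), near the 58.6% of all genes. Their median difference was 0.59, against 0.17 for all genes.

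Some values carry limits from the gene models. Ccnb1, Ccnb2, Kif4 and Kif22 have pseudogene copies in the GENCODE annotation, among which reads could be split. Prc1 overlaps Rccd1 on the opposite strand over 21810 bases, Kif20a overlaps Cdc23 over 2327 bases and Ube2c overlaps Tnnc2 over 1662 bases. The sources used here do not say whether counting used the strand, so reads of these pairs may not be told apart.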

How the data were processed

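Per the labels, single cells were sorted by tetramer from dissociated islets and sequenced as full-length SMART-Seq2 libraries with paired reads. The submitters' processing notes list TopHat, Bowtie, RSEM 1.2.8 and mm10, with no role for each. How cells and genes were filtered, and cells clustered, is not stated there. The authors deposited natural log values: the exponential minus 1 summed to 100000 in each of 441 cells, so values were read as ln(TPM/10 + 1) and turned back into TPM. The authors' deposited annotation gave each cell's class and its number of genes detected, a count of genes above 0. Depth is unknown in TPM.

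Each sort counted as 1 sample, so no test between sorts or classes and no p-value was computed. Dixon's gap ratio was used only to flag single cells among the 9 HIP dividing cells. Differences are of mean log2(TPM + 1), on a scale that understates changes of low genes, over genes detected at 1 TPM in at least 10% of the dividing cells of either sort; the comparison of the dividing class with other T cells used the same 10% in either group. Intervals of shares are exact (Clopper-Pearson, 95%), and a count of 0 allows up to 3 cells of the total. No doublet caller was run. The scripts were tested on simulated data. The members and gene lists were chosen with earlier results of these data known. All members are accounted for; values per cell are given for chromosome state and mitotic entry genes and the 2 most and 2 least detected members, and the sort contrast names the 6 members with the highest and the 6 with the lowest difference. Of other genes, the 6 most detected and the 3 largest sort differences in each direction of the mitotic list are named, with the 8 genes most correlated with the members. Cells named singly, pairs and combinations of members, and members compared by level where detected were chosen after their values were seen. Python 3.11.15, NumPy 2.4.6, pandas 2.3.3, SciPy 1.17.1 and matplotlib 3.10.9 were used.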

Additional observations from a re-analysis of the deposited data

Results flagged for a closer look

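Of 4 measures examined over the 9 HIP dividing cells (members, summed member TPM, replication genes and genes detected), 2 had a cell far above the others. They were flagged by Dixon's gap ratio, with a critical value of 0.493 for 9 cells. For a single measure with normal values, such a gap is flagged in about 1 in 20 groups by chance. Here 4 measures were examined, and the cells are not replicates. The TPM summed over members was 22060 in 1 HIP cell, with 37 members and 11 replication genes, against 11096 in the next highest. In another HIP cell 5929 genes were detected, the most of all 441 cells, with all 38 members at a summed 8879 TPM.

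In cluster 4, which no comparison of T cells uses, 4 cells held 10 or more members, all with antibody-secreting cell markers. One of them, cell 372, repeats the members of cell 360 at a median of 0.556 times its TPM, and without it 3 cells remain.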

How the results depend on the processing

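No result reversed under the alternatives tried. The number of cells outside the dividing class with 10 or more members, 5 with cluster 4 included, was 10 when any value above 0 counted as detected, 3 without the cells above the 95th percentile of genes detected, 104 at 5 or more members and 3 at 15 or more; it was 3 to 5 when each block of cell numbers was left out in turn. The median member difference between the sorts was 0.81 without the cells of most genes and 0.69 at a pseudocount of 10 TPM, and 0.49 to 1.46 when each block was left out, lowest without HIP block 2. Members more than 1 higher in HIP dividing cells numbered 14 at a pseudocount of 10 TPM and 17 to 27 when each block was left out. Without the cells of most genes the dividing share was 2.23% in HIP and 8.33% in Ins. Of the 22 cells left out there, 20 were cells of the dividing class itself. Within dividing cells of no detected Foxp3 (9 HIP and 8 Ins cells) the median difference was 1.86 with 35 members higher. Shares over all genes were not computed under any of these alternatives, so their member counts have no background beside them. Alternatives chosen after seeing the data, which left out Spc24, Hmmr, Birc5 and Ube2c, kept to dividing cells with 3000 to 4500 genes detected, or left out cell 372, moved no value by over 1.5 times. The cause of these shifts was not tested. No paired analysis was possible because replicate numbers only name cells in accession order and no test between groups was made. With 1 sample per sort and depth unknown in TPM, values of 0 may be transcripts that were not captured, and the 9 HIP dividing cells limit every sort difference.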

Other observations

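Across the 420 T cells, the genes of no member whose log2(TPM + 1) went most closely with the mean of the 38 members were Cdca8, the borealin subunit of the passenger complex (Pearson r = 0.85), Tacc3 (0.83), Cep55, an abscission gene (0.82), 2810417H13Rik (0.82), the histone gene Hist1h2ao (0.81), Gtse1 (0.81), the ribonucleotide reductase subunit gene Rrm2 (0.80) and the histone gene Hist2h3b (0.79). Within the 44 dividing cells alone the same correlations were 0.74 for Cdca8, 0.66 for Tacc3 and 0.43 for Rrm2. These cells share a table, a detection limit and their number of genes detected, and the values carry no test. Gtse1 was detected in 20 of 44 dividing cells and in 0 of the 376 other T cells.

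Genes that restrain the cell cycle did not all run against the members. Cdkn2d, which encodes the inhibitor p19, was detected in 22 of 44 dividing cells (226 ± 373 TPM, SD over cells) and in 48 of 376 other T cells (83.2 ± 259 TPM). Btg1, an antiproliferative gene, averaged 14.7 ± 20.0 TPM in dividing cells (detected in 52.3%) and 136 ± 198 TPM in the other T cells (69.1%). Cdkn1b, encoding p27, averaged 14.0 ± 18.3 TPM in dividing cells and 45.3 ± 107 TPM in the others, although it was detected in 32 of 44 dividing cells (72.7%) and in 225 of 376 others (59.8%). Among the other genes listed, Cdkn1a was detected in 43.2% of dividing cells, against 15.7% of other T cells, and Rb1 in 25.0% against 5.32%. Shares were 61.4% against 37.2% for Rbl2, 40.9% against 29.8% for Btg2 and 15.9% against 8.24% for Cdkn2c. They were 9.09% against 0.798% for Klf2 and 2.27% against 4.26% for Tob1. Dividing cells had more genes detected per cell, at a median of 3614.5, against 2002.5 in the other T cells.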
